A study of Mus musculus with 39 samples.

Results

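The genes described here are 44 genes that copy DNA or supply its building blocks, chosen by name from the 25219 genes of the deposited table, and all 44 were found. They encode the origin recognition complex (Orc1 to Orc6), the helicase loaders Cdc6 and Cdt1, the helicase ring Mcm2 to Mcm7, its activators Cdc45, Mcm10 and Gins1 to Gins4, 9 subunits of DNA polymerases, the clamp loader Rfc1 to Rfc5, the single-strand binding proteins Rpa1 to Rpa3, the sliding clamp Pcna with the nuclease Fen1 and the ligase Lig1, and 4 enzymes of nucleotide supply (Rrm1, Rrm2, Tyms and Tk1). Their RNA was measured in 39 single cells of the mouse intestine. Levels are FPKM (fragments per kilobase of transcript, scaled to a total per cell), so genes of different length can be compared.

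All 39 cells were sorted as tdTomato+ Sca1- crypt epithelial cells from mice that carry Lgr5-EGFP-Ires-CreERT2 together with Rosa-lsl-tdTomato, in which tamoxifen switches on a permanent red label in cells that express Lgr5, a gene of crypt stem cells. The Cre was expressed from the Lgr5 locus, so the label marks Lgr5-expressing cells and their later progeny. Tamoxifen was given 24 h before total body irradiation with 10 Gy, and the cells were taken 48 h after it. Every cell was therefore irradiated, and no unirradiated cell was analysed here. No animal is named for any cell, so the 39 cells count as 1 biological sample, each SD is a spread over cells, and no p-value was computed. The study grouped its cells into Cluster 1 (22 cells) and Cluster 2 (15 cells) by stem cell signature genes, and the membership of the cells was taken from the labels printed under the study's heat map. Some of these labels were blurred, and those cells were assigned by elimination among the cell numbers. A new clustering on 98 genes of that signature placed 37 of 37 cells as labelled, and 0 of the 44 replication genes belong to it. Cells 9 and 79 were in neither cluster. Because the clusters were made from the expression of these same cells, differences between them are descriptions.

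Before a chromosome is copied, the origin recognition complex marks the start sites, and Cdc6 and Cdt1 load the ring of Mcm2 to Mcm7 around the DNA in an inactive form. In S phase, Cdc45 and the GINS complex turn the ring into a moving helicase, the primase of polymerase alpha starts new strands, and polymerases delta and epsilon extend them with the help of the clamp. In the intestinal crypt, stem cells and their transit-amplifying progeny replicate DNA often, whereas Paneth, goblet and tuft cells are mostly out of the cell cycle.

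The cells held 398418 to 3903971 estimated counts on genes, with a median of 3089188, and 2287 to 5779 genes at 1 FPKM or more. Epcam, Krt8 and Krt18 were detected in all 39 cells and 7 of 7 epithelial markers were detected in a cell. Of 3 endothelial and 4 mesenchymal markers 0 were above 0 FPKM in any cell, and of 5 leukocyte markers only Itgam reached 1 FPKM. Cell 9 was the shallowest and cell 79 the next in number of genes from the low end, at 2335 genes. Both also stood apart in the share of their total that fell on genes, with the total inferred from counts, FPKM and transcript length. That share was 33.4% in cell 9 and 63.5% in cell 79, against 70.6% to 95.2% in the cells of the clusters. Correlations over 39 cells include them, and without them the median r within the Mcm ring was 0.46 in place of 0.50 and that within the origin recognition complex 0.04 in place of 0.09.

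Most cells expressed most of the replication genes, and a minority expressed few of them. A gene was counted as detected at 1 FPKM or more. Per cell, 4 to 39 of the 44 genes were detected, with a median of 32. The mean of log2(FPKM + 1) over the 44 genes, called the replication score below, was lowest at 0.51 in cell 79, had a median of 3.84, and was highest at 5.18 in cell 46. Of the 44 genes, 33 were detected in at least 20 of 39 cells, which held for 37.4% of the 9804 genes that averaged 1 FPKM or more. All 44 passed that limit on the mean. Pola2, the regulatory subunit of polymerase alpha, was the only one detected in all 39 cells, followed by Pcna in 36, Tyms in 35 and Rpa3 in 34. Orc1 and Gins3 were detected in 6 cells each, the fewest of the 44.

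**Figure D1:**
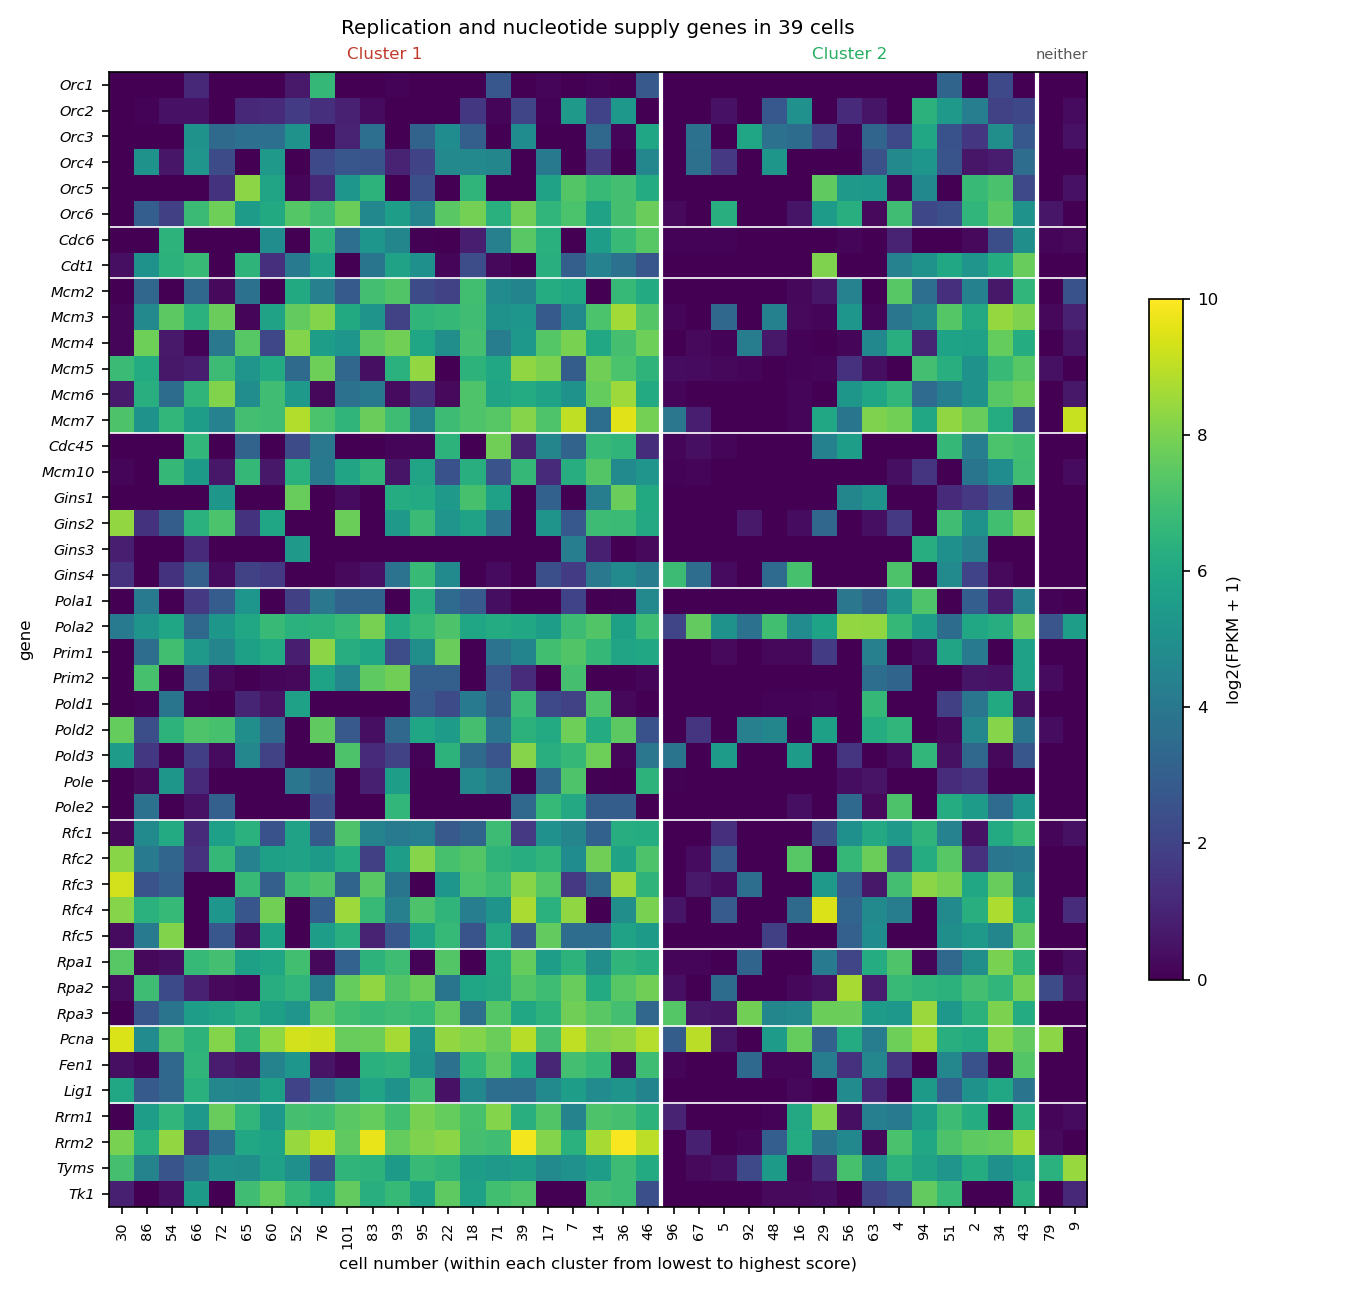
Each square is the level of one of the 44 genes (vertical, in order of role) in one of the 39 cells (horizontal, by cluster and then by score), as log2(FPKM + 1) from dark at 0 to yellow at 10. The 6 lowest cells of Cluster 2 and cells 79 and 9 are mostly dark, while cell 43 of Cluster 2 looks like the Cluster 1 cells with 38 genes detected.

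The replication score was higher in Cluster 1, but the clusters overlapped. In Cluster 1 it was 2.48 in the lowest cell (cell 30), 4.23 at the median and 5.18 in the highest, with a mean of 4.11 ± 0.70 (SD, n = 22 cells). In Cluster 2 it was 0.70 in the lowest cell (cell 96), 2.85 at the median and 5.00 in the highest (cell 43), with a mean of 2.60 ± 1.53 (SD, n = 15 cells). The difference of the means, 1.51, was larger than the pooled SD over cells of 1.11. Cluster 2 was spread out rather than uniformly low: 7 of its 15 cells lay below every cell of Cluster 1, and the other 8 lay within the range of Cluster 1. The 7 were cell 96 at 0.70, cell 67 at 0.77, cell 5 at 0.82, cell 92 at 0.90, cell 48 at 1.21, cell 16 at 1.48 and cell 29 at 2.31. Cells 79 and 9, in neither cluster, had scores of 0.51 and 0.77. The 44 genes together took a median of 0.754% of the estimated counts on genes in Cluster 1 and 0.424% in Cluster 2.

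**Figure D2:**
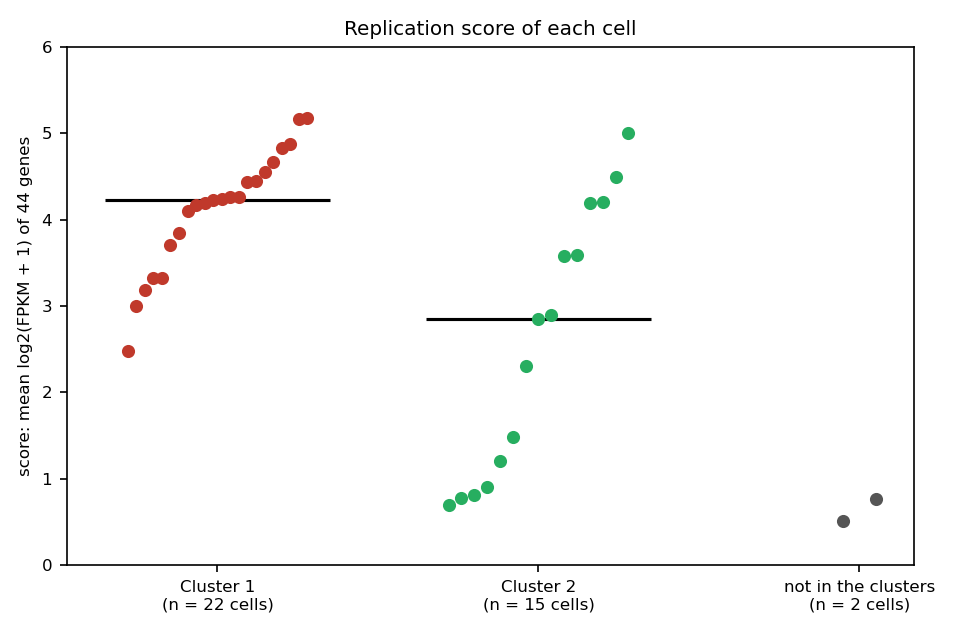
Points are single cells, placed by their replication score (mean log2(FPKM + 1) of 44 genes, vertical) within Cluster 1, Cluster 2 and the cells in neither; black lines are medians, 4.23 and 2.85. Cluster 1 starts at 2.48, whereas 7 cells of Cluster 2 and both cells in neither lie below it.

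A cell with fewer genes detected also has a lower mean log2 level of moderately expressed genes, and the score moved with that number. Cells of Cluster 1 had more genes detected, with a mean of 4706 against 4256 in Cluster 2. They also had more estimated counts, with a mean of 3359430 against 2696470. Pearson's r between the score and the genes detected was 0.75 over 39 cells, 0.47 within Cluster 1 and 0.71 within Cluster 2, as a description of cells that differ in depth. Without cells 9 and 79 it was 0.67. With each cell centred on its own mean over genes, r was 0.59 over 39 cells, 0.21 within Cluster 1 and 0.57 within Cluster 2, and the difference between the clusters was 1.28. Between the uncentred score and log10 of the estimated counts, r was 0.29 over 39 cells, 0.04 within Cluster 1 and -0.42 within Cluster 2. The number of genes and the score did not always go together. Cell 5 had 4574 genes but 9 of the 44, cell 16 had 4138 genes and 11 of the 44, and cell 48 had 4073 genes and 12. Cell 39 of Cluster 1, with fewer genes than these (3821), had 33 of the 44. Cell 43 had 661255 estimated counts, fewer than any other cell except cell 9, and 38 of the 44.

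**Figure D3:**
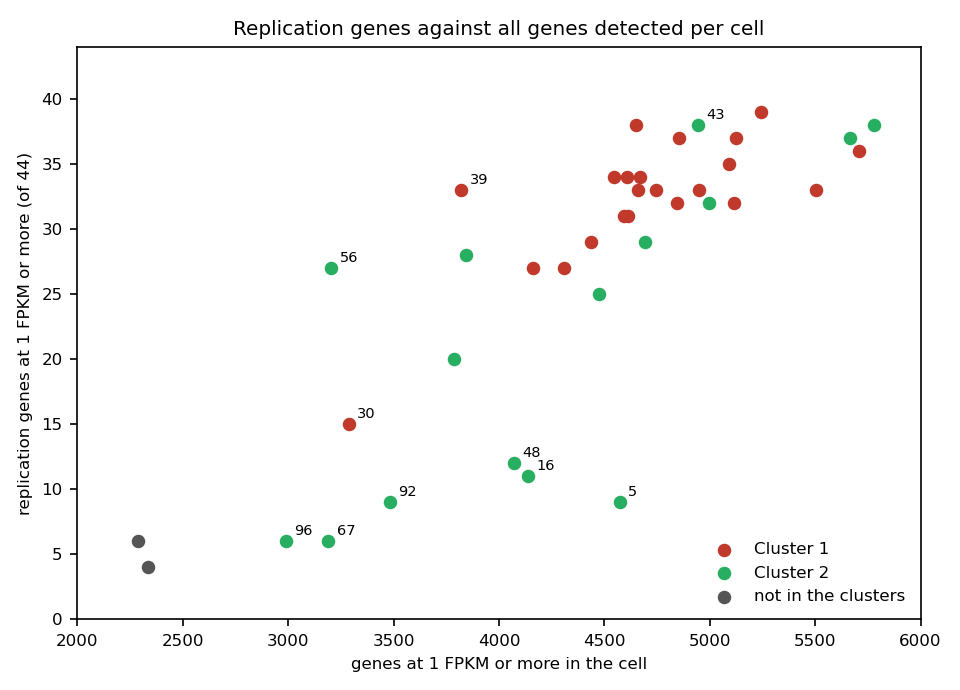
Each point is a cell, with all genes at 1 FPKM or more on the horizontal axis and the number of the 44 replication genes on the vertical axis, coloured by cluster; numbers name cells given in the text. Cells 5, 16 and 48 lie far below cells with a like number of genes, at 9, 11 and 12 of the 44, while cells 39 and 56 have 33 and 27.

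Markers of mature cell types were high in some cells with a low score and also in some with a higher one. All 3 tuft cell markers were detected in a cell, and their summed level was 0 to 11.04 FPKM in Cluster 1, 0 to 394 in Cluster 2 and 0.333 to 286 in the cells of neither. Cell 96 had 222 FPKM of Dclk1, a kinase of tuft cells, and 162 of Pou2f3, their lineage factor, and cell 79 had 105 FPKM of Dclk1 and 181 of Trpm5, with Pou2f3 at 0. All 5 Paneth markers were detected, with a summed level of 1.31 to 1881 FPKM in Cluster 1, 37.5 to 12123 in Cluster 2 and 616 to 4289 in the cells of neither. That sum reached 20 FPKM in 37 of 39 cells, so it does not single out Paneth cells. All 4 goblet markers were detected, with 0.0637 to 2148 FPKM in Cluster 1, 0 to 11353 in Cluster 2 and 87.2 to 362 in the cells of neither. Cell 5 of Cluster 2 had 11289 FPKM of Tff3, a secreted goblet cell peptide, with 63.2 FPKM of Fcgbp and with Muc2 and Clca1 at 0. High Tff3 also occurred in cells with many replication genes, at 9579 FPKM in cell 63 (25 of the 44), 2850 in cell 4 (29 of the 44) and 2146 in cell 65 (32 of the 44). Cell 79 had 40997 FPKM of Fabp1, a fatty acid binding protein of enterocytes. All 4 enterocyte markers were detected, with 0.943 to 764 FPKM in Cluster 1, 0 to 1245 in Cluster 2 and up to 41006 in the cells of neither. The median sum of the enterocyte markers was 225 FPKM in Cluster 1 and 180 in Cluster 2. In the same order it was 197 and 399 for the Paneth markers and 10.8 and 29.1 for the goblet markers. For the general epithelial markers it was 1808 and 3181, and for the tuft markers 0 in both. Of 3 enteroendocrine markers, only Neurod1 reached 1 FPKM, and Chga was at 0 in every cell. Over 39 cells the score had r of -0.48 with the summed Paneth markers, -0.25 with the goblet markers, 0.07 with the enterocyte markers and -0.39 with the general epithelial markers, and without cells 9 and 79 the values were -0.43, -0.21, 0.33 and -0.40. In the same order they were -0.32, 0.20, -0.11 and -0.34 within Cluster 1 and -0.38, -0.16, 0.38 and -0.26 within Cluster 2. No r is given for the tuft markers, which reached 1 FPKM in 4 cells (cells 96, 79, 67 and 7), nor for the enteroendocrine markers, above 0 in 2. The part of these cell types in the low scores was not tested.

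Of the 44 genes, 38 had their higher mean log2(FPKM + 1) in Cluster 1, which held for 60.5% of the 9676 genes that averaged 1 FPKM or more in these 37 cells. A difference of at least 1 on this scale in favour of Cluster 1 was found for 30 of the 44, against 14.9% of all genes used. In favour of Cluster 2 it was found for 0 of the 44, against 4.89%, but for 2 with a pseudocount of 0.1 FPKM and for 1 each with thinned and with centred cells. The median difference over the 44 was 1.79, and over all genes used it was 0.20. For 11 of the 44 the difference was larger than the pooled SD over cells: Prim1, Rrm2, Rrm1, Mcm10, Tk1, Mcm7, Orc6, Cdc6, Lig1, Rfc2 and Pcna. All 11 were higher in Cluster 1. Since the 44 were measured in the same cells, they are not 44 separate observations of a cluster.

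**Figure D4:**
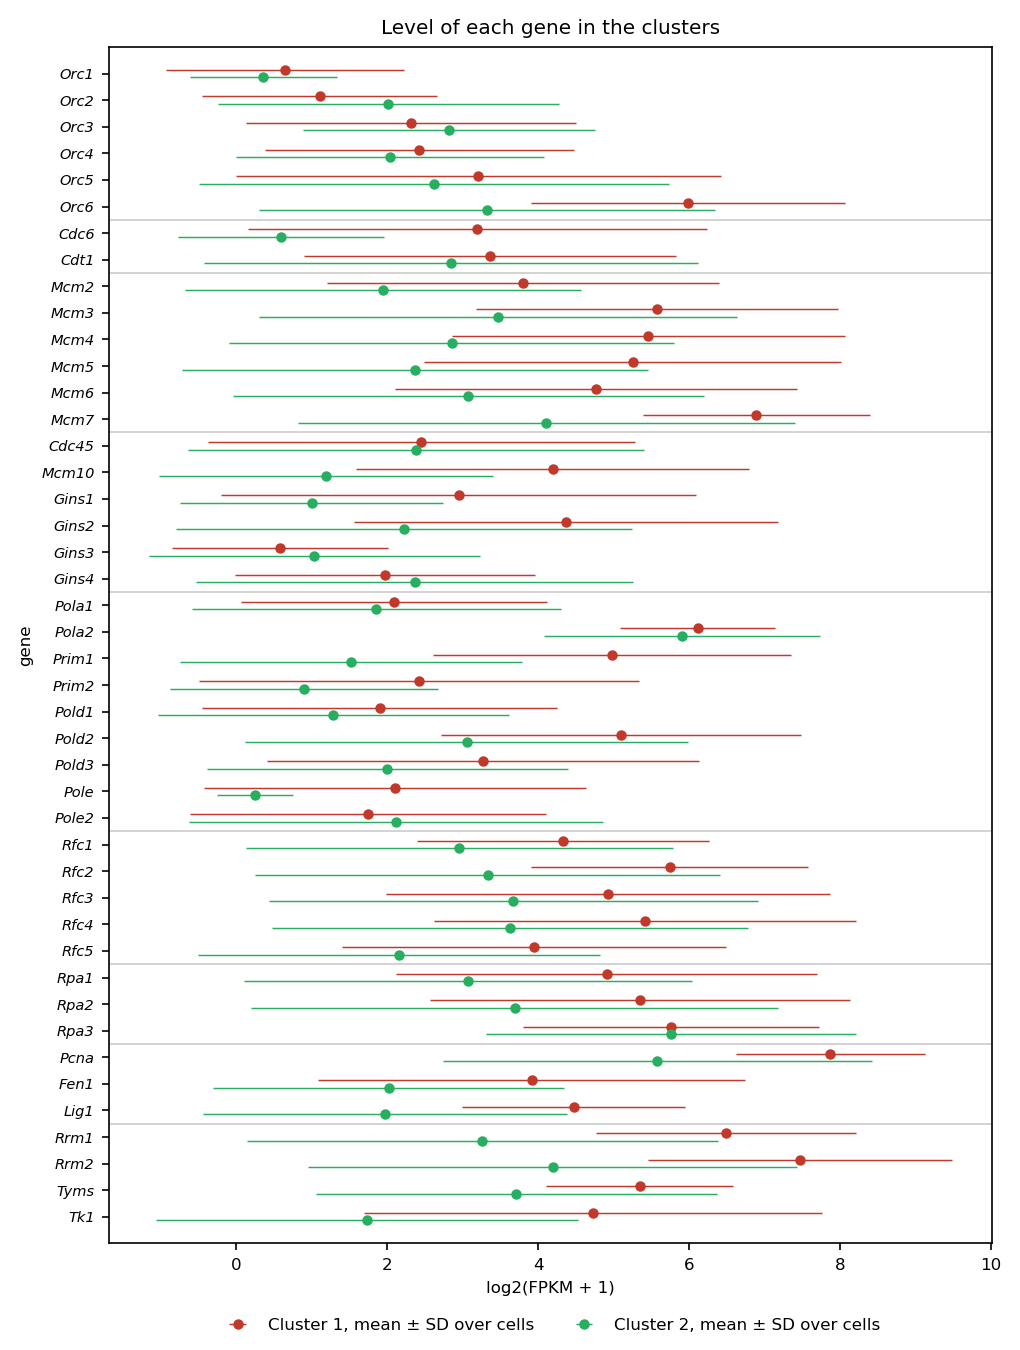
Points are the mean log2(FPKM + 1) of each gene in Cluster 1 (red, n = 22 cells) and Cluster 2 (green, n = 15 cells), and bars are the SD over cells; grey lines separate roles. The red point lies to the right for 38 of 44 genes, by most for Prim1 (3.46), while Orc2, Orc3, Gins3, Gins4 and Pole2 lie the other way by less than 1.

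Over 39 cells the origin recognition complex had the lowest median pairwise r of the 3 complexes with more than 4 subunits, but not within Cluster 1. All 6 subunits were detected together in 0 of 39 cells (95% exact interval 0 to 9.03%, counting error only), and the median pairwise r between subunits was 0.09 over 39 cells, 0.18 within Cluster 1 and 0.08 within Cluster 2. Orc1 was detected in 6 cells and Orc2 in 17, against 24 to 33 for the subunits of the Mcm ring. All 6 could therefore be found together in at most 6 cells. Over the 44 genes, those with a lower mean level also had a lower r with the others (r of 0.62 between level and r). Orc6 (Entrez Gene 56452; chromosome 8, 85299632 to 85308279), the subunit least like the others in sequence, had the highest mean of the 6 at 77.6 FPKM. Orc6 was at 0 FPKM in its lowest cell of Cluster 1, 103 at the median and 238 in the highest (cell 18). In Cluster 2 it was at 0, 4.43 and 174.5 FPKM, so the clusters overlapped, and it was found in 21 of 22 and 9 of 15 cells. Its difference was 2.66, and its r with the mean of the other 43 genes was 0.72. It was the only subunit with a difference of at least 1. Orc1 (Entrez Gene 18392; chromosome 4, 108579454 to 108614831), the ATPase subunit whose protein is regulated through the cell cycle, had the lowest mean, 3.23 FPKM, and cell 76 alone, at 100 FPKM, held 79.7% of its sum. Its median was 0 in both clusters, and its highest value in Cluster 2 was 8.34 FPKM (cell 51). Orc2 and Orc3, core subunits of the complex, were slightly higher in Cluster 2. Orc2 was found in 9 of 22 and 8 of 15 cells, with a difference of -0.91 against a pooled SD of 1.87. It went from 0 through a median of 0.394 to 41.5 FPKM (cell 7) in Cluster 1 and from 0 through 1.29 to 84.3 FPKM (cell 94) in Cluster 2. Of its exonic bases, 29.8% also belong to exons of Nif3l1 on the other strand, and the sources used here do not state whether reads were assigned by strand. Orc3 was found in 13 of 22 and 12 of 15 cells, with lowest values of 0, medians of 7.69 and 5.79, highest values of 57.3 (cell 46) and 63.5 FPKM (cell 94), and a difference of -0.51. Its r with the other genes over 39 cells, 0.10, was the lowest but one. Orc4, another ATPase subunit of the core, followed the other genes little (r 0.20), and Orc5 was detected in 20 cells, with up to 304 FPKM in cell 65.

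E2F proteins bind short sites in the promoters of many replication genes, and exact matches to TTTCCCGC, TTTCGCGC, TTTGCCGC or TTTGGCGC on either strand were searched from 250 bases before to 50 bases after the annotated starts. Promoters of 37 of the 44 genes were in the RefSeq table used (GRCm38.p6). A match was found for 15 of the 37 (40.5%), for 5.05% of 7393 genes that averaged 1 FPKM or more and for 2.6% of all 27025 genes of the table. The 8-letter matches can overlap each other when they lie on opposite strands. Orc3 had one, and its stretch is shown because its level followed the other genes so little (chr4:34614953-34615052, minus strand, read 5′ to 3′, the match in capitals):
Orc3: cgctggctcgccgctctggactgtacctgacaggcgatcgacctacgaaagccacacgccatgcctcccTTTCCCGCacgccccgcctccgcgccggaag
The match describes letters only, and binding was not measured.

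Cdc6 and Cdt1, which load the helicase, differed from each other. Cdc6 (Entrez Gene 23834; chromosome 11, 98907889 to 98923942) differed more between the clusters than Cdt1. It was found in 12 of 22 cells of Cluster 1 and 2 of 15 of Cluster 2, with medians of 15.5 and 0.0627 FPKM and highest values of 171 (cell 39) and 30.6 FPKM (cell 43). The difference was 2.59, just above the pooled SD of 2.51. Cdt1 was found in 16 of 22 and 7 of 15 cells, its medians were 12.97 and 0 FPKM, its highest values were 107 FPKM in cell 66 of Cluster 1 and 267 in cell 29 of Cluster 2, and its difference was 0.52. Within Cluster 1 the r of Cdt1 with the other genes was -0.13, and within Cluster 2 it was 0.77. Both loaders were detected together in 11 of 39 cells, 9 of them in Cluster 1. The RefSeq start used for Cdc6 lies after the deposited start given above, so its promoter stretch falls inside those gene coordinates. This promoter held a match to the E2F letters, and binding was not measured. It is shown because Cdc6 was found in so few cells of Cluster 2 (chr11:98907961-98908060, plus strand, the match in capitals):
Cdc6: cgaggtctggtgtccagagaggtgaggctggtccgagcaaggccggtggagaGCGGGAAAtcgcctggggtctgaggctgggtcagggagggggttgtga

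Over 39 cells the ring Mcm2 to Mcm7 had the highest median pairwise r of the 3 complexes with more than 4 subunits, whereas within Cluster 1 it had the lowest. Every subunit differed by at least 1 in favour of Cluster 1, with a median difference of 2.35 and a range of 1.69 (Mcm6) to 2.88 (Mcm5). In 25 of 39 cells 5 or 6 subunits were detected, in 10 cells 0 to 2, and in only 4 cells 3 or 4, so cells mostly had nearly the whole ring or little of it. All 6 were detected in 15 cells, 11 of Cluster 1 and 4 of Cluster 2, and 0 subunits in 3 cells (cells 16, 67 and 79). With any value above 0 counted as detected, 24 cells had all 6. The median pairwise r was 0.50 over 39 cells, against 0.02 over all pairs of the 9804 genes. Within Cluster 2 it was 0.56, and within Cluster 1, where nearly all cells had most of the ring, it was 0.07, below the 0.13 of the clamp loader and the 0.18 of the origin recognition complex.

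Mcm7 (Entrez Gene 17220; chromosome 5, 138164589 to 138171862) had the highest mean of the ring, 150 FPKM. It was found in all 22 cells of Cluster 1, at 11.1 FPKM in the lowest, 136 at the median and 743 in the highest (cell 36). In Cluster 2 it was found in 10 of 15 cells, from 0 through a median of 14.8 to 325 FPKM (cell 51), and its difference was 2.78 against a pooled SD of 2.38. Cell 9, with 2 of 6 subunits, had 573 FPKM of Mcm7 and 4.73 of Mcm2. Mcm2 (Entrez Gene 17216; chromosome 6, 88883474 to 88898780) had the lowest mean, 31.2 FPKM, and was found in 17 of 22 and 6 of 15 cells. It went from 0 through a median of 15.8 to 157 FPKM (cell 93) in Cluster 1 and from 0 through 0.501 to 167 FPKM (cell 4) in Cluster 2. Mcm5 went from 0 through a median of 76.9 to 331 FPKM (cell 95) in Cluster 1 and from 0 through 0.257 to 168 FPKM (cell 43) in Cluster 2, and it was found in 18 and 6 cells. Mcm4, part of the catalytic core with Mcm6 and Mcm7, had the highest r of the ring with the other genes over 39 cells, 0.75. Mcm3 and Mcm6 were detected in 20 and 18 cells of Cluster 1 and in 9 and 8 of Cluster 2.

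The subunits form the ring in equal numbers, but their RNA was not equal within a cell. In the 15 cells with all 6, the highest subunit exceeded the lowest by 1.74-fold in cell 18, 25.1-fold at the median and 209-fold in cell 51. In cell 18 the levels ran from 86.8 FPKM (Mcm5) to 151 (Mcm6), and in cell 51 from 1.55 (Mcm2) to 325 (Mcm7). The median share of the summed FPKM was 37.1% for Mcm7 and 5.47% for Mcm2, with Mcm3 at 16.04%, Mcm4 at 12.7%, Mcm5 at 11.8% and Mcm6 at 8.12%. Mcm7 was the highest subunit in 8 of the 15 cells and Mcm2 in 0. The microRNA genes Mir25 and Mir93 lie inside the annotated exons of Mcm7 on the same strand, both listed at 0 FPKM. On the other strand, 321 of its exonic bases are shared with Ap4m1, which had a mean of 3.12 FPKM and was detected in 3 cells. A further 64 are shared with Cops6, also on the other strand, which had a mean of 152 FPKM. The part of these overlaps in the Mcm7 level was not tested.

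Promoter stretches of 3 ring genes are shown because they hold matches to the E2F letters and the levels of the ring genes were correlated over 39 cells, though hardly within Cluster 1 (capitals mark the matches; 2 that overlap are printed as 1 run): Mcm5 at chr8:75109309-75109408, plus strand; Mcm6 at chr1:128359736-128359855, minus strand; and Mcm7 at chr5:138171994-138172093, minus strand.
Mcm5: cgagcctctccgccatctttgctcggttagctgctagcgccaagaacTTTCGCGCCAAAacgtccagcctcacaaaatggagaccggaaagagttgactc
Mcm6: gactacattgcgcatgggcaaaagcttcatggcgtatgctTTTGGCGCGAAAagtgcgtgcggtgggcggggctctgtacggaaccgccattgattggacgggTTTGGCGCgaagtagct
Mcm7: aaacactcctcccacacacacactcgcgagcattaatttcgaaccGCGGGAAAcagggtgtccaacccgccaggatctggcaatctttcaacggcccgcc
Of the 5 ring genes with a promoter in the table, Mcm3 also held a match and Mcm2 did not.

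**Figure D5:**
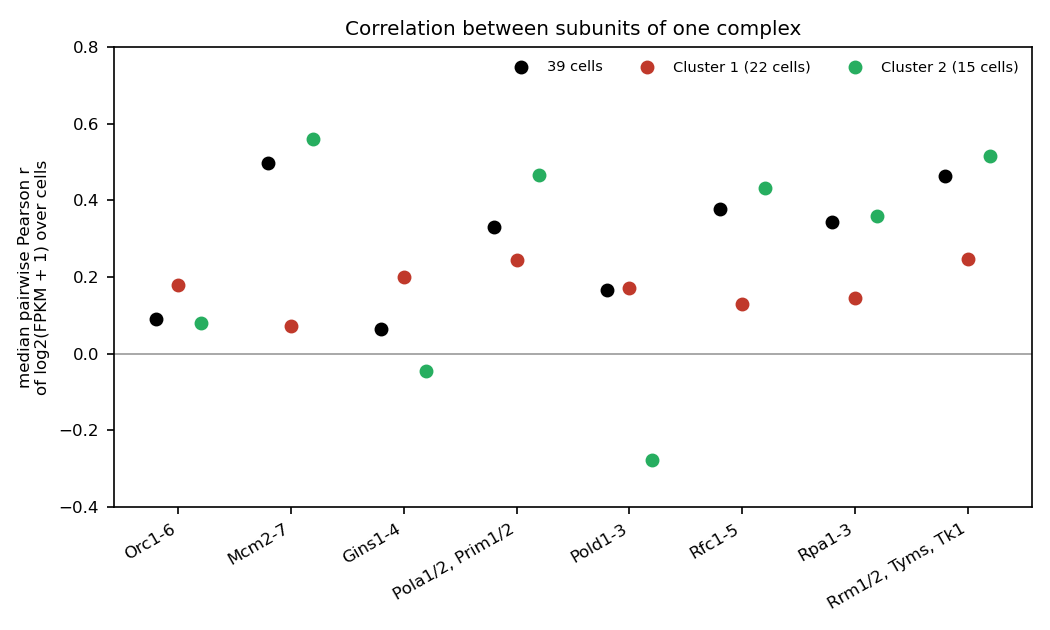
Points are the median Pearson r of log2(FPKM + 1) over all pairs of genes within each group (horizontal), over 39 cells (black), within Cluster 1 (red) and within Cluster 2 (green). Mcm2 to Mcm7 stand at 0.50, 0.07 and 0.56, while Orc1 to Orc6 and Gins1 to Gins4 are at 0.09 and 0.06 over 39 cells.

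Of the 6 activators of the helicase, Gins2 was detected in 24 cells, as many as Mcm2 and Mcm5, and the other 5 in 6 to 21. Mcm10, a scaffold of the active helicase, was found in 17 of 22 and 4 of 15 cells, with medians of 39.5 and 0 FPKM and highest values of 160 (cell 14) and 123 FPKM (cell 43). Its difference of 2.999 was among the 5 largest. Cdc45, a core part of the active helicase, was found in 11 of 22 and 6 of 15 cells, with medians of 1.21 and 0.138 FPKM and highest values of 227 (cell 71) and 141 FPKM (cell 34). Its difference of 0.07 changed sign when each cell was centred on its mean over genes, and was 0.67 without cells under 2000000 estimated counts. Both were detected together in 14 cells. The 4 GINS subunits were detected together in only 2 cells, cells 2 and 51 of Cluster 2, and their median pairwise r was 0.06. Gins2 had the highest mean of the 4, 50.8 FPKM, and was found in 18 of 22 and 6 of 15 cells with a difference of 2.14. Its medians were 38.7 and 0.322 FPKM and its highest values 336 (cell 30) and 261 FPKM (cell 43). Of its exonic bases, 67.3% are shared with Gse1 on the other strand, which was detected in 9 cells. Gins1 was found in 11 and 5 cells, with a difference of 1.95. Gins3 (Entrez Gene 78833; chromosome 8, 95633559 to 95645059) had the lowest mean, 4.81 FPKM, and was detected in 3 cells of each cluster, with medians of 0, highest values of 40.1 (cell 52) and 75.02 FPKM (cell 94) and a difference of -0.46. Gins4 was found in 13 of 22 and 7 of 15 cells, had a difference of -0.40 that changed sign with a pseudocount of 0.1 FPKM, and with r of -0.02 over 39 cells was the gene least like the rest. Its r was 0.29 within Cluster 1, where Pold2 and Cdt1 were lowest at -0.13 each, and -0.27 within Cluster 2, the lowest of the 44 there. Its medians were 1.98 and 0.216 FPKM and its highest values 105 (cell 95) and 145 FPKM (cell 4). Its level was 116 FPKM in cell 96 and 133 in cell 16, cells with 6 and 11 of the 44 genes. The promoter of Gins3, among the rarest of the 44, held a match to the E2F letters, and binding was not measured (chr8:95633449-95633548, plus strand, the match in capitals):
Gins3: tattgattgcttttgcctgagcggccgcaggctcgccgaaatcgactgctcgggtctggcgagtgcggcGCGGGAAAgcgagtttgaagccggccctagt

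Polymerase subunits did not follow each other closely, and the 9 together had a median pairwise r of 0.16. In polymerase alpha, Pola2 (Entrez Gene 18969; chromosome 19, 5940543 to 5964206) had the highest mean, 89.8 FPKM. It was at 9.39, 70.3 and 245 FPKM in the lowest, median and highest cell of Cluster 1 and at 3.30, 60.6 and 329 FPKM in Cluster 2, where it was also detected in cells with few replication genes. Its difference was 0.21, and it changed sign when cells were centred. Pola1, the catalytic subunit of the same enzyme, had a mean of 11.7 FPKM and was found in 13 of 22 and 6 of 15 cells with a difference of 0.24, which was 0.60 without cells under 2000000 estimated counts. Its medians were 2.88 and 0 FPKM and its highest values 76.2 (cell 95) and 150 FPKM (cell 94). Prim1 (Entrez Gene 19075; chromosome 10, 128015215 to 128030030), the catalytic primase, had the largest difference of the 44, 3.46 against a pooled SD of 2.33. It was at 0, 53.5 and 309 FPKM (cell 76) in the lowest, median and highest cell of Cluster 1 and at 0, 0.176 and 55.98 FPKM in Cluster 2, and was found in 19 of 22 cells (86.4%, 65.1 to 97.1) and 5 of 15 (33.3%, 11.8 to 61.6; exact 95% intervals, counting error only). Prim2, the large primase subunit, was found in 11 and 3 cells with a difference of 1.52. All 4 genes of this enzyme were detected together in 10 cells, 8 of Cluster 1.

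In polymerase delta, which copies the lagging strand, Pold2 had the highest mean (58.7 FPKM, 29 cells, difference 2.04) and the catalytic Pold1 the lowest (14.2 FPKM, 15 cells, difference 0.62). Pold2 had medians of 63.97 and 13.3 FPKM and highest values of 222 (cell 7) and 292 FPKM (cell 34). For Pold1 the medians were 0.739 and 0.0718 and the highest values 151 (cell 14) and 99.1 FPKM (cell 63), and both genes were at 0 in the lowest cell of each cluster. Pold3, an accessory subunit, was detected in 23 cells with a difference of 1.27. In polymerase epsilon, which copies the leading strand, the catalytic Pole was found in 10 of 22 cells of Cluster 1 and 2 of 15 of Cluster 2. Its highest value was 151 FPKM in Cluster 1 (cell 7) and 1.94 FPKM in Cluster 2 (cell 2). Its median was 0.523 FPKM in Cluster 1 and 0 in Cluster 2. Its partner Pole2 went the other way by -0.37 and was found in 9 and 6 cells, but without cells under 2000000 estimated counts the difference was -0.03. Its medians were 0 and 0.197 FPKM and its highest values 104 (cell 17) and 148 FPKM (cell 4). With a mean of 16.3 FPKM, Pole2 lay above Pole at 10.4 FPKM.

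The clamp loader, the single-strand binding proteins and the clamp were broadly expressed. All 5 subunits of the clamp loader differed by at least 1 in favour of Cluster 1, from 1.26 for Rfc3 to 2.41 for Rfc2, and 18 cells had all 5, of which 14 were of Cluster 1. Their median pairwise r was 0.38. Rfc4 had the highest mean, 104 FPKM, with its highest value of 711 FPKM in cell 29 of Cluster 2, and Rfc1, the large subunit, had the lowest, 32.4 FPKM. The medians of Rfc4 were 82.7 and 10.1 FPKM, and its highest value in Cluster 1 was 425 FPKM (cell 39). Rfc1 went from 0.159 through 21.9 to 147 FPKM in Cluster 1 and from 0 through 3.94 to 104 FPKM (cell 43) in Cluster 2. Rfc4 shares 194 exonic bases with Eif4a2 on the other strand, a translation factor detected in all 39 cells. The r between them was 0.16. Rfc2 was detected in every cell of Cluster 1 and 10 of 15 of Cluster 2, and Rfc5 in 17 and 7. Among the proteins that cover single-stranded DNA, Rpa2 had r of 0.73 with the other genes and a difference of 1.66, and Rpa1, the largest subunit, had a difference of 1.83, with medians of 73.1 and 8.39 FPKM and highest values of 197 (cell 39) and 253 FPKM (cell 34). Rpa3, the smallest, was nearly level between the clusters with a difference of -0.01, which changed sign when cells were rescaled, thinned or limited to those above 2000000 counts, against a pooled SD of 2.17. Its medians were 81.9 and 69.2 FPKM, its highest values 226 (cell 7) and 363 FPKM (cell 94), and it was found in 21 of 22 and 13 of 15 cells.

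Pcna (Entrez Gene 18538; chromosome 2, 132249286 to 132253180), the sliding clamp, had the highest mean of the 44 genes, 233 FPKM. It was found in all 22 cells of Cluster 1, at 27.1, 281 and 682 FPKM in the lowest, median and highest cell (cell 30). In Cluster 2 it was found in 13 of 15 cells, at 0, 70.4 and 498 FPKM, and the highest was cell 67, which had only 6 of the 44 genes. Cell 79, with 4 of the 44, had 308 FPKM of Pcna. High Pcna therefore also occurred in cells with few other replication genes. Lig1, which seals Okazaki fragments, was found in 21 of 22 and 7 of 15 cells, with medians of 23.9 and 0.154, highest values of 121 (cell 95) and 60.7 FPKM (cell 34) and a difference of 2.50 against a pooled SD of 1.90. Fen1, the flap nuclease, was found in 15 and 8 cells with a difference of 1.89, and 78.8% of its exonic bases are shared with the antisense gene Gm10143, for which no value was matched. A further 130 exonic bases are shared with Tmem258 on the other strand, which had a mean of 154 FPKM and was detected in 37 cells.

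Of the 4 enzymes of nucleotide supply, Rrm2, Rrm1 and Tk1 were among the 5 largest differences of the 44, while Tyms, at 1.64, was below the median of 1.79 and within its pooled SD of 1.93. Ribonucleotide reductase, which makes deoxyribonucleotides, is built from Rrm1 and Rrm2, and both were detected together in 28 of 39 cells, 21 of Cluster 1 and 7 of Cluster 2. Their r was 0.66 over 39 cells, 0.15 within Cluster 1 and 0.56 within Cluster 2. Rrm2 (Entrez Gene 20135; chromosome 12, 24708254 to 24714146), the small subunit limited to S phase and G2 in cycling cells, had r of 0.83 with the other 43 genes over 39 cells, the highest of the 44. Within Cluster 1 it was 0.43, lower than for 9 other members, and within Cluster 2 it was 0.83, lower than for Mcm6 at 0.89. Rrm2 was at 1.81, 259 and 948 FPKM (cell 36) in the lowest, median and highest cell of Cluster 1 and at 0, 24.3 and 375 FPKM (cell 43) in Cluster 2. All 22 cells of Cluster 1 and 10 of 15 of Cluster 2 were at 1 FPKM or more, and the difference was 3.28 against a pooled SD of 2.57. Rrm1 (Entrez Gene 20133; chromosome 7, 102441695 to 102469771) was at 0, 128 and 285 FPKM in Cluster 1 and at 0, 15.9 and 282 FPKM in Cluster 2, detected in 21 and 8 cells, with a difference of 3.22. Where both were detected, Rrm2 was the higher one in 22 of 28 cells, with a median share of 62.4% of their sum. The promoter of Rrm2 held a CCAAT box, found for 62.2% of the 37 genes and 43.5% of the 7393 expressed genes, and no match to the E2F letters (chr12:24708104-24708223, plus strand, CCAAT in capitals, shown because Rrm2 followed the other genes most closely over 39 cells):
Rrm2: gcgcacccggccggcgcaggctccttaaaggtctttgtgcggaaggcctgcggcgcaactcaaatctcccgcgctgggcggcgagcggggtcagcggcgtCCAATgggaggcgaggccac

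Tk1, the thymidine salvage kinase of S phase, was found in 16 of 22 and 5 of 15 cells, at 0, 70.8 and 196 FPKM (cell 60) in Cluster 1 and at 0, 0.180 and 192 FPKM (cell 94) in Cluster 2, with a difference of 2.997 against a pooled SD of 2.94. Tyms, which makes thymidylate from deoxyuridylate, was detected in all 22 and in 11 of 15 cells. It was at 4.46, 44.5 and 131 FPKM (cell 30) in the lowest, median and highest cell of Cluster 1 and at 0, 31.4 and 134 FPKM (cell 56) in Cluster 2. Its highest value of all, 354 FPKM, was in cell 9, where Tk1 was at 1.23 FPKM. A pseudogene, Tyms-ps, is also in the table, so counts for Tyms are uncertain where reads match both.

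Across the 44 genes, the r of a gene with the mean of the other 43 had a median of 0.53, and it reached 0.5 for 23 of the 44. Within Cluster 1 the median was 0.24 and 6 genes reached 0.5, and within Cluster 2 the median was 0.58 and 27 did. Over all pairs of the 44 the median r was 0.27 over 39 cells, 0.08 within Cluster 1 and 0.34 within Cluster 2. Over all pairs of genes that averaged 1 FPKM or more and varied in these cells, it was 0.0214, -0.0065 and -0.0016. Among the 9760 genes outside the list, 3.98% reached 0.5 with the score, and their median was 0.14. All these values come from the same 39 libraries, which differ in depth and in genes detected. Genes with a higher mean level also had a higher r (r of 0.62 over the 44), and Orc1 and Gins3, with r of 0.25 and 0.19, were detected in 6 cells each. The median r was 0.47 (0.10 to 0.71) for the 15 genes with a match to the E2F letters and 0.57 (0.20 to 0.83) for the 22 without. In the same order, the median difference between the clusters was 1.26 and 1.81. For 7 of the 44 no promoter was in the table used, and the part of E2F in these levels was not tested. The cell cycle homology region (TTTGAA or TTCGAA, either strand) was found for 18.9% of the 37 and 16.6% of expressed genes.

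Genes of the same pathway outside the 44 were compared by lists. Of 37 further replication genes, 36 averaged 1 FPKM or more, 18 of them differed by at least 1 in favour of Cluster 1 and 1 in favour of Cluster 2, against 14.9% and 4.89% of all genes used. Their mean log2 level had r of 0.92 with the score over 39 cells, 0.63 within Cluster 1 and 0.92 within Cluster 2. Ccna2, the S phase cyclin, had a difference of 2.93, Tipin, a fork protection factor, 2.82, and Gmnn, which inhibits Cdt1, 2.31. Pold4, the small subunit of polymerase delta, was the one in the other direction, at -1.25. Of 13 further nucleotide genes, 5 differed by at least 1 in favour of Cluster 1 and 0 in favour of Cluster 2, and r was 0.78 over 39 cells, 0.24 within Cluster 1 and 0.79 within Cluster 2. Taken gene by gene, the median r with the score was 0.32 over the replication list, 0.43 over the nucleotide list and 0.43 over the mitotic list below. Shmt1 had a difference of 2.13 and Dut 1.802, both enzymes of thymidylate metabolism. Rrm2b, the reductase subunit that p53 induces after DNA damage, was detected in only 1 of 39 cells, cell 39, at 91.9 FPKM.

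Of 17 mitotic genes, 10 differed by at least 1 in favour of Cluster 1 and 0 in favour of Cluster 2, against 14.9% and 4.89% of all genes used, with a median difference of 1.04. Their mean level had r of 0.64 with the score over 39 cells, 0.15 within Cluster 1 and 0.70 within Cluster 2. Ccnb2, a mitotic cyclin, had a difference of 3.29. Mki67, the gene of the proliferation marker Ki-67, was under 1 FPKM in 12 cells, of which 4 had 5 or 6 subunits of the Mcm ring (cells 86, 39, 46 and 76). Cell 46, with the highest score of all, had 0.900 FPKM of Mki67. Of 9 targets of p53 in use, 0 differed by at least 1 in favour of Cluster 1 and 5 in favour of Cluster 2, beside the same 14.9% and 4.89%. Cdkn1a, which encodes the cell cycle inhibitor p21, was found in 12 of 22 and 15 of 15 cells, with medians of 5.05 and 78.0 FPKM and a difference of -3.07 against a pooled SD of 2.69. The mean level of the p53 targets had r of -0.08 with the score over 39 cells, -0.18 without cells 9 and 79, -0.20 within Cluster 1 and 0.23 within Cluster 2. High Cdkn1a and a nearly complete replication set occurred in the same cell: cell 51 had 326 FPKM of Cdkn1a and 37 of the 44 genes.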

How the data were processed

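Single-cell RNA was measured in 39 cells of 1 group. The labels state that capture sites were inspected for single cells, so doublets were not called, that cDNA came from the SMARTer kit and libraries from the Nextera XT kit, and that Takara Bio extracted the values. The submitters' processing notes name bcl2fastq 1.8.4, TopHat2 2.0.14 and the builds mm10 and GRCm38; the counter, its strand setting and the annotation release are not given in the sources used here. Deposited by the authors were, per gene and cell, FPKM values and estimated counts (18.4% of counts above 0 were not whole). FPKM was used as deposited. Estimated counts served for depth and, rounded, for thinning to 600000. Deposited transcript lengths were used for thinning and for the total of each cell, which was inferred from counts, FPKM and length. The shares of the total that fell on genes rest on that inferred total. Deposited gene ontology columns were not used. Each value column matched 1 of the 39 cells.

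The replication score was the mean log2(FPKM + 1) of the 44 genes, with a pseudocount of 1 FPKM, which understates differences of weak genes. Without molecular identifiers, a count is not a molecule, and a transcript lost before amplification appears as 0. Cells are not replicates, so no test was run and intervals are exact Clopper-Pearson 95% intervals for counting error only. The members and lists were chosen with earlier results of these data known. Named genes were all 44, with the medians and highest values of both clusters for the highest and lowest subunit of each complex, the 5 largest differences in each direction, and the genes with the highest and lowest correlation with the others; list genes named in the text are examples chosen after their values were seen. Exon overlaps came from GENCODE M21 and promoters from RefSeq (GRCm38.p6). A planned search of protein features was not run. The steps were tested on simulated data. Scripts ran under Python 3.11.15 with scipy 1.17.1, pandas 2.3.3, numpy 2.4.6 and matplotlib 3.10.9.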

Additional observations from a re-analysis of the deposited data

How the results depend on the processing

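Of 48 alternatives of the main results, 44 stayed within the spread over cells (over gene pairs for the Mcm correlation) or within 1.5 times the count, 4 moved and 0 reversed. Limiting the score to members that averaged 1 FPKM or more could change nothing, since all 44 did. The count of members at least 1 log2 unit higher in Cluster 2, 0 as reported, was 2 with a pseudocount of 0.1 FPKM (Orc2 at -1.20 and Orc3 at -1.13), 1 after thinning to 600000 counts (Orc2 at -1.01) and 1 with each cell centred on its mean over genes (Orc2 at -1.14). Cells with all 6 Mcm subunits numbered 24, in place of 15, when any value above 0 counted as detected. The difference in score between the clusters ranged from 1.28 (centred) to 2.25 (median over members), and without cells under 2000000 estimated counts (22 and 13 cells left) it was 1.72. All 30 genes at least 1 higher in Cluster 1 stayed so under the 5 settings tried for single genes. The sign changed for Gins4 with a pseudocount of 0.1 FPKM, for Rpa3 with rescaled, thinned or deeper cells, and for Cdc45 and Pola2 when centred. Leaving cells 9 and 79 out of the correlations was chosen after seeing the data and changed no sign. No paired analysis was possible because all cells belong to 1 group. With 1 biological sample, spread between mice is unknown, and cells with few genes detected limit what a 0 can show.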

Other observations

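Genes outside the 44 were ranked by their Pearson correlation with the replication score over 39 cells, which share their libraries and differ in depth, and the names were chosen after their values were seen. Pbk, a mitotic kinase, and Dek, a chromatin protein, had the highest values, r of 0.81 each, followed by Isy1, a splicing factor, at 0.78, and G6pc3, a glucose-6-phosphatase, at 0.76. Pbk went from 0 through a median of 94.9 to 723 FPKM and was detected in 30 of 39 cells. Dek averaged 124 FPKM in Cluster 1 and 35.2 in Cluster 2, with a difference of 3.40 in mean log2(FPKM + 1). The list also held Tuba1b, Anp32e, Cks2, Hmgb3 and the histone mRNA binding protein Slbp. At the low end stood Malat1, a nuclear noncoding RNA, with r of -0.67, detected in all 39 cells at 19.98 to 5820 FPKM. With each cell centred on its mean over genes, r was -0.65 for Malat1, 0.78 for Pbk and 0.78 for Dek.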
